A study of Arabidopsis thaliana with 12 samples.

Results

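The comparison concerned an Arabidopsis thaliana line that over-expresses PIF3 and its wild type Col-0, with 3 whole-seedling libraries each, which are 6 of the 12 libraries in the series. It covered all genes with enough counts for the test, 21235 of the 27588 genes in the deposited table. The other genotypes, with 3 libraries each, were a cfh1 mutant and a CFH1 decoy line, and all 4 genotypes are in the Columbia 0 ecotype. Seedlings spent 7 days under 12 h of light alternating with 12 h of darkness and then stayed in constant red light until harvest on day 12, 1 h after subjective dawn (zeitgeber time 1). The titles of the PIF3 libraries speak of a pif3 mutant, whereas the genotype and description fields name over-expression, and the libraries were grouped by those fields. Which promoter drives PIF3 in the line, and whether more than 1 line was used, is not given in the sources used here. The labels do not say whether libraries of 1 genotype came from separate cultures, and p-values thus refer to the spread between samples, which may be technical. Because whole seedlings were sampled, fewer cells of a type and less RNA per cell cannot be told apart for any gene below.

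PIF3 is a basic helix-loop-helix transcription factor that binds DNA at the G-box CACGTG and at the related motif CACATG. Red light converts phytochromes, above all phytochrome B, into their active form, which enters the nucleus, binds PIF3 and sets off its phosphorylation and degradation. In dark-grown seedlings PIF3 and its relatives hold back chlorophyll and chloroplast genes and promote elongation, in part through auxin and cell wall genes, and light relieves this hold.

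Total counts ran from 31333924 to 32309836 in the PIF3 over-expression libraries and from 28581600 to 33583770 in the Col-0 libraries. Levels are given as CPM (a gene's counts relative to the TMM-scaled size of its library), and differences as log2 fold changes of PIF3 over-expression over Col-0 with their standard error (SE). A gene was called higher or lower where edgeR's quasi-likelihood test gave a Benjamini-Hochberg adjusted p under 0.05. In all, 1275 genes were called higher, 6% of those tested, and 1554 were called lower, 7.32%. Of these, 523 (2.46% of all tested) were higher and 444 (2.09%) lower by 1 or more on the log2 scale. Scaling by library totals alone put the median log2 fold change of all genes at 0.08 in place of -0.0012 and gave 1818 higher and 1140 lower genes, so that 61.46% of the called genes were higher in place of 45.07%. Replicate 1 of the PIF3 over-expression line stood apart from its group, at 74.8 on the second principal component against 33.9 and 39.2 for replicates 2 and 3, and it had the highest summed level of the abscisic acid genes and the lowest of the photosynthesis lists described below. Col-0 replicate 3 had the highest abscisic acid response levels of its own group. The fit was therefore repeated with each of the 6 libraries left out in turn. Without replicates 1, 2 and 3 of PIF3 over-expression, 543, 1090 and 1000 genes were called higher and 539, 1429 and 969 lower. Without replicates 1, 2 and 3 of Col-0, the counts were 413, 530 and 974 higher and 461, 659 and 1081 lower. In all 6 of these fits, 390 genes kept their higher call and 406 kept their lower call, and genes in that set are said below to have held in all 6 fits.

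PIF3 itself had 348, 350 and 363 CPM in the PIF3 over-expression libraries, against 22.8, 26.6 and 36.9 CPM in Col-0 (log2 fold change 3.62 ± 0.23 SE, edgeR adjusted p = 5.34e-06). The libraries whose titles speak of a mutant thus all lay far above all Col-0 libraries. In the cfh1 mutant and the CFH1 decoy line PIF3 averaged 26.5 and 34.8 CPM, near the Col-0 range, and PIF3 over-expression lay above both (log2 fold change 3.74 over cfh1 and 3.35 over decoy, edgeR adjusted p = 2.94e-06 and 3e-07). Of the 9 tested genes for PIFs and their close partners, PIF3 included, 5 were called higher and 1 lower, against 6% and 7.32% of all genes. Their median log2 fold change was 0.59. Leaving out PIF3 over-expression replicates 1, 2 and 3 gave 5, 4 and 3 higher members, and leaving out Col-0 replicates 1, 2 and 3 gave 3, 3 and 4. Each of these counts of higher members includes PIF3, the over-expressed gene, whose own rise was set by the design.

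HFR1, a helix-loop-helix protein that pairs with PIFs and keeps them off DNA, had 22.8, 34.3 and 38.6 CPM in PIF3 over-expression libraries, against 2.78, 3.55 and 4.05 CPM in Col-0 (log2 fold change 3.21 ± 0.22 SE, edgeR adjusted p = 1.18e-05). The groups were wide apart, and replicate 1 was the lowest of the over-expression libraries. PIF6, a PIF known from seed dormancy, had 49.0, 14.1 and 18.7 CPM in PIF3 over-expression libraries, against 7.98, 8.04 and 7.66 CPM in Col-0 (log2 fold change 1.79 ± 0.36 SE, edgeR adjusted p = 0.00857). Here replicate 1 was the highest, and without it the log2 fold change was 1.06 (edgeR adjusted p = 0.0164). The calls of PIF3, HFR1 and PIF6 held in all 6 fits, and PIF6 overlaps another tested gene over 10.7% of its length.

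PIF4, which drives warmth and shade elongation, had 53.8, 57.9 and 58.8 CPM in PIF3 over-expression libraries, against 33.1, 35.9 and 44.2 CPM in Col-0 (log2 fold change 0.59 ± 0.14 SE, edgeR adjusted p = 0.0167). The groups did not overlap, but edgeR's adjusted p was 0.0503 without PIF3 over-expression replicate 3, 0.0888 without Col-0 replicate 1 and 0.0729 without Col-0 replicate 2. PIF7, a shade-activated PIF, was the only lower member, with 11.5, 13.9 and 15.4 CPM in PIF3 over-expression libraries, against 20.9, 20.1 and 21.0 CPM in Col-0 (log2 fold change -0.60 ± 0.14 SE, edgeR adjusted p = 0.0138). Its call was lost without PIF3 over-expression replicate 1 (-0.49, edgeR adjusted p = 0.0669), without Col-0 replicate 1 (-0.59, edgeR adjusted p = 0.0609) and under scaling by library totals (-0.52, edgeR adjusted p = 0.0531). PIL1, a PIF3-like gene that is a classic early shade marker, was close to the detection limit at 1.33, 1.85 and 2.33 CPM in PIF3 over-expression libraries, against 0.918, 0.939 and 1.03 CPM in Col-0 (log2 fold change 0.93 ± 0.27 SE, edgeR adjusted p = 0.0369). Its call was lost in 5 of the 6 fits, at adjusted p from 0.0771 without Col-0 replicate 3 to 0.161 without PIF3 over-expression replicate 3, with 0.0809, 0.138 and 0.118 without PIF3 over-expression replicate 2 and Col-0 replicates 1 and 2. PIF5, PIF8 and PIF1 did not pass the test, at log2 fold changes of -0.29, -0.22 and 0.12.

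**Figure D1:**
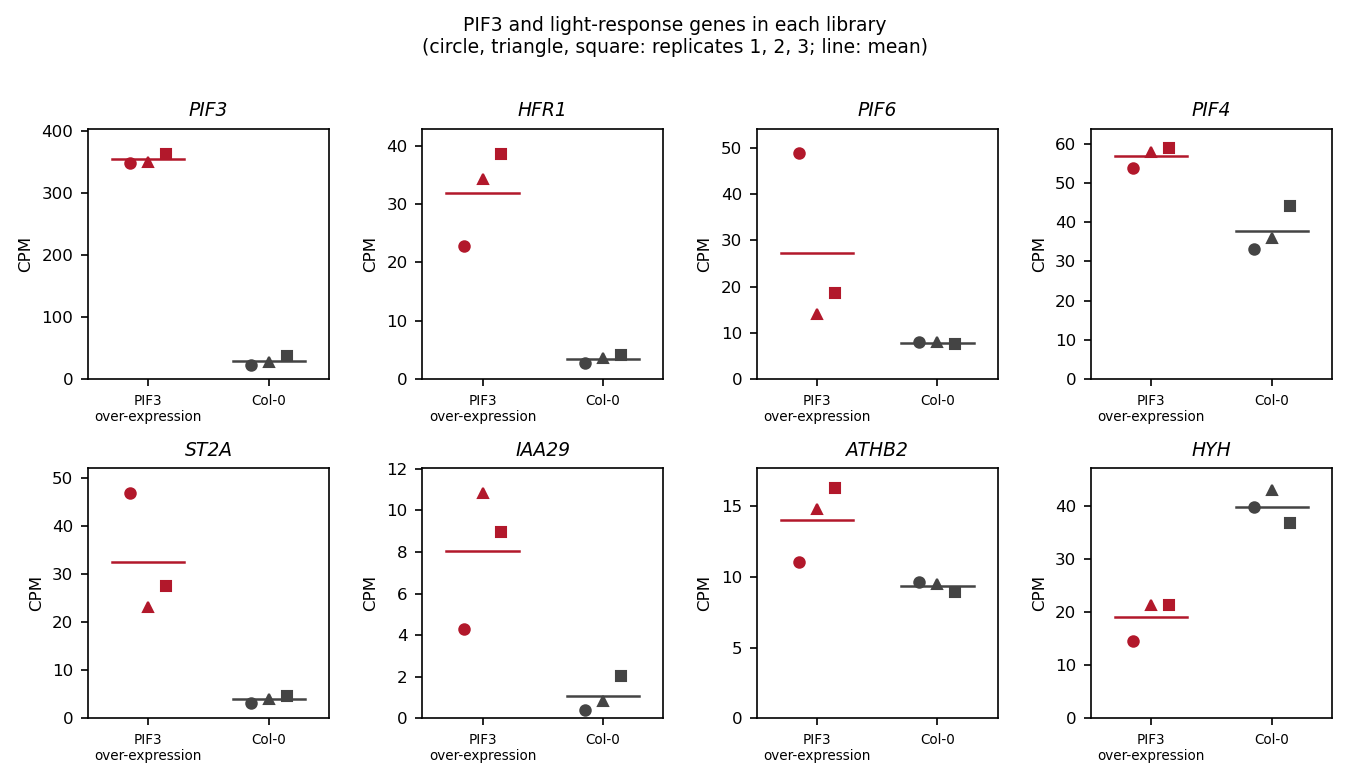
Levels in CPM (vertical axis, from 0) of 8 genes of PIF and light signalling in the 3 PIF3 over-expression libraries and the 3 Col-0 libraries, with a line at each group's mean. In each of the 8 panels the groups do not overlap, and HYH is the only gene of the 8 that is lower with PIF3 over-expression. The lowest over-expression value of HFR1 is 22.8 CPM and the highest Col-0 value is 4.05 CPM.

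Among 20 genes known to rise in shade or downstream of PIFs, a list that includes HFR1 and PIL1, 10 were called higher and none lower, against 6% and 7.32% of all genes tested. Their median log2 fold change was 0.60, against -0.0012 over all genes. Leaving out PIF3 over-expression replicates 1, 2 and 3 left 7, 5 and 6 higher members, and leaving out Col-0 replicates 1, 2 and 3 left 3, 4 and 3. HFR1, ST2A and IAA29 held in all 6 fits. ST2A, a sulfotransferase that acts on a jasmonate, had 46.9, 23.2 and 27.5 CPM in PIF3 over-expression libraries, against 3.16, 4.08 and 4.74 CPM in Col-0 (log2 fold change 3.03 ± 0.27 SE, edgeR adjusted p = 0.000122). It was also above both other lines (log2 fold change 2.61 over cfh1 and 1.53 over decoy, edgeR adjusted p = 0.000274 and 0.000443). IAA29, an auxin response repressor induced in shade, had 4.29, 10.8 and 8.97 CPM in PIF3 over-expression libraries, against 0.402, 0.821 and 2.03 CPM in Col-0 (log2 fold change 2.91 ± 0.47 SE, edgeR adjusted p = 0.00301). All over-expression values lay above all Col-0 values, and without Col-0 replicate 3 the log2 fold change was 3.71. The decoy line did not differ detectably from PIF3 over-expression for IAA29 (log2 fold change 0.17, edgeR adjusted p = 0.754). Over the shade list the decoy line was itself above Col-0 in 10 of 20 members and below it in 2, with a median of 0.45. Over all 21235 genes tested it was above Col-0 in 4163 and below it in 4504. PIF3 over-expression was above the decoy line in 8 shade members and below it in 3, against 22.7% and 20.5% of all genes. ATHB2, a homeodomain factor that is a standard shade marker, had 11.1, 14.8 and 16.3 CPM in PIF3 over-expression libraries, against 9.62, 9.47 and 8.96 CPM in Col-0 (log2 fold change 0.59 ± 0.15 SE, edgeR adjusted p = 0.0239). That call was kept only without PIF3 over-expression replicate 1, and the adjusted p was 0.0642 and 0.0982 without PIF3 over-expression replicates 2 and 3 and 0.0808, 0.0762 and 0.0722 without Col-0 replicates 1, 2 and 3.

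Because PIFs bind CACGTG and CACATG, the 300 bases before each annotated gene start were searched for CACGTG, for CACATG or its complement CATGTG, and for ACGTGNC, the core of the abscisic acid response element, on both strands. CACGTG and ACGTGNC can overlap, since CACGTG followed by N and C holds both. The ACGTGNC search was added after the abscisic acid genes were seen to be high. CACGTG stood in 16.7% of the promoters of genes called higher, in 7.26% of those called lower and in 7.99% of all genes tested. Among genes that differed by 1 or more on the log2 scale, the shares were 19.9% for higher and 5.08% for lower genes. CACATG or CATGTG stood in 18.8% of promoters of higher genes, in 12.6% of lower and in 13.3% of all. ACGTGNC stood in 20.4% of promoters of higher genes, in 11.4% of lower and in 10.5% of all. Among genes that differed by 1 or more on the log2 scale, ACGTGNC stood in 26.9% of higher and 9.01% of lower genes. CACATG or CATGTG stood in 20.1% and 12.7% of the same genes. A match describes the letters and is not a binding site. In the shade list 2 of 20 promoters held CACGTG and 7 of 20 held CACATG or CATGTG, and in the list of cold, drought and abscisic acid genes 7 of 26 held CACGTG and 10 of 26 held ACGTGNC. Light harvesting and Rubisco genes, of which 13 were called lower, held CACGTG in 6 of 26 and ACGTGNC in 10 of 26. The following upstream windows are shown because their genes, taken from the shade list and the largest rises, were called higher with the smallest p among those that hold CACGTG. They are 5′ to 3′ along the gene from the RefSeq TAIR10.1 assembly, with CACGTG and, in IAA19, CATGTG in capitals. ACGTGNC is not marked, but over both strands GOLS2, LEA4-5, LEA7 and IAA19 hold 2, 2, 3 and 1 matches to it. In GOLS2, LEA7 and IAA19 the marked CACGTG overlaps such a match.
GOLS2, chr1:21207237-21207536, plus strand: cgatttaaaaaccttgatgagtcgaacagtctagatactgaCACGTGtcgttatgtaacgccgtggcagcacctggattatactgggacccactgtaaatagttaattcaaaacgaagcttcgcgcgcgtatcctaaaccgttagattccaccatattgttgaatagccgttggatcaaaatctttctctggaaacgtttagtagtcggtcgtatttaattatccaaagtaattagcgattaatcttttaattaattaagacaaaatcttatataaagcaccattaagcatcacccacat
LEA4-5, chr5:2090431-2090730, minus strand: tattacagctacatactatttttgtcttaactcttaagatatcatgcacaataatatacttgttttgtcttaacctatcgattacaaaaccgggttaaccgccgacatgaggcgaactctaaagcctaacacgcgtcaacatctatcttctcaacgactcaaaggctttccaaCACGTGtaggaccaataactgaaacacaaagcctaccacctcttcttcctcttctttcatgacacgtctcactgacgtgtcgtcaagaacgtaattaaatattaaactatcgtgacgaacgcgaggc
LEA7, chr1:19619424-19619723, plus strand: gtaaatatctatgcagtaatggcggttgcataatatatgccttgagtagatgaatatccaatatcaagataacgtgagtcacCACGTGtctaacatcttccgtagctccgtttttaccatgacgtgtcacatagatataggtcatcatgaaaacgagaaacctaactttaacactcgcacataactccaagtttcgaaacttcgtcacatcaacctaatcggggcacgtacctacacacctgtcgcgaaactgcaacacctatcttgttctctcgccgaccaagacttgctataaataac
IAA19, chr3:5263701-5264000, plus strand: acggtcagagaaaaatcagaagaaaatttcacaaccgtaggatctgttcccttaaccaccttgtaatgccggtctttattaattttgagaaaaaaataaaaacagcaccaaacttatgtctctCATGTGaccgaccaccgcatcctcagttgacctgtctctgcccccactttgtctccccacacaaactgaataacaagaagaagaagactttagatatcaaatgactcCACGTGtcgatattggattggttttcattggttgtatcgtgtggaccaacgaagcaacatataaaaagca

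In these windows CACGTG ended nearest to the gene start in IAA19, whose product is an auxin response repressor, and lay farther upstream in GOLS2, LEA7 and LEA4-5, whose products protect cells during water loss. IAA19 had 10.7, 15.9 and 12.1 CPM in PIF3 over-expression libraries, against 8.21, 8.80 and 8.45 CPM in Col-0 (log2 fold change 0.60 ± 0.16 SE, edgeR adjusted p = 0.0272). The groups did not overlap, but the call was lost without PIF3 over-expression replicate 2 (edgeR adjusted p = 0.101) and without Col-0 replicates 1, 2 and 3 (0.106, 0.0762 and 0.0703).

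Genes for photosynthesis were lower with PIF3 over-expression. Of 26 nuclear genes for light-harvesting antenna proteins (LHCA and LHCB) and for the small subunit and activase of Rubisco, 13 were called lower and none higher, against 7.32% lower among all genes, with a median log2 fold change of -0.64. Of 22 nuclear genes for photosystem subunits and electron carriers, 17 were lower and none higher, with a median of -0.71. For 24 of the 26 and for 22 of the 22, all 3 over-expression libraries lay below all 3 Col-0 libraries, against 21.2% of all genes. The summed level of the light harvesting and Rubisco list was 33706, 51433 and 47646 CPM in PIF3 over-expression libraries, against 70591, 68419 and 72660 CPM in Col-0. The photosystem list summed to 12298, 19486 and 16462 CPM in PIF3 over-expression libraries, against 26652, 25317 and 26374 CPM in Col-0. Replicate 1 was the lowest over-expression library in both sums, and without it the medians were -0.51 and -0.54.

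The number of calls in these lists depended on single libraries. For the light harvesting list, leaving out PIF3 over-expression replicates 1, 2 and 3 gave 4, 17 and 4 lower members and leaving out Col-0 replicates 1, 2 and 3 gave 3, 4 and 8. For the photosystem list the corresponding counts were 8, 18 and 10 and then 6, 8 and 11. LHCB2.3, LHCB1.1 and LHCA1 held in all 6 fits, as did PSAD2, PSAF, PSAK, PSAH2, PSBQ1 and PSAN. LHCB1.1, an antenna protein of photosystem II, had 1072, 1813 and 1417 CPM in PIF3 over-expression libraries, against 2871, 3117 and 2900 CPM in Col-0 (log2 fold change -1.05 ± 0.20 SE, edgeR adjusted p = 0.00706). LHCB2.3 had 186, 346 and 242 CPM in PIF3 over-expression libraries, against 547, 603 and 522 CPM in Col-0 (log2 fold change -1.11 ± 0.21 SE, edgeR adjusted p = 0.0068). In neither gene did the groups overlap. Both belong to families of near-identical copies between which estimated counts can be split, and LHCB2.3 overlaps a gene on the opposite strand over 37.6% of its length. PSAF, a photosystem I subunit at the plastocyanin docking site, had 423, 806 and 599 CPM in PIF3 over-expression libraries, against 1445, 1321 and 1402 CPM in Col-0 (log2 fold change -1.19 ± 0.21 SE, edgeR adjusted p = 0.00439). PSAD2, a stromal subunit of photosystem I, had 222, 376 and 296 CPM in PIF3 over-expression libraries, against 639, 684 and 566 CPM in Col-0 (log2 fold change -1.08 ± 0.19 SE, edgeR adjusted p = 0.00418). All over-expression libraries lay below all Col-0 libraries for both photosystem genes, with replicate 1 lowest. The Rubisco small subunit gene RBCS3B had 1638, 3099 and 2149 CPM in PIF3 over-expression libraries, against 5179, 5842 and 4622 CPM in Col-0 (log2 fold change -1.18 ± 0.27 SE, edgeR adjusted p = 0.0143). Its groups did not overlap either, but the adjusted p was 0.0588 and 0.0508 without PIF3 over-expression replicates 1 and 3 and 0.0556 and 0.0586 without Col-0 replicates 1 and 2. LHCB1.3 and LHCB7 overlapped between groups and did not pass the test, at log2 fold changes of -0.31 and 0.09.

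Chlorophyll synthesis followed the same direction. Of 26 genes of the pathway, 13 were lower and none higher, against 7.32% and 6% of all genes tested. The median log2 fold change was -0.50. In 24 of the 26 genes the groups did not overlap and over-expression was lower, against 21.2% of all genes. The pathway summed to 4143, 5493 and 5024 CPM in PIF3 over-expression libraries, against 7090, 6964 and 7240 CPM in Col-0. Leaving out PIF3 over-expression replicates 1, 2 and 3 gave 4, 11 and 7 lower members and leaving out Col-0 replicates 1, 2 and 3 gave 3, 3 and 10. HEMA1, HEME1 and HEME2 held in all 6 fits. HEMA1, glutamyl-tRNA reductase and the main control point at the entry of the pathway, had 62.1, 121 and 72.2 CPM in PIF3 over-expression libraries, against 230, 206 and 197 CPM in Col-0 (log2 fold change -1.31 ± 0.21 SE, edgeR adjusted p = 0.00341). HEME1, a uroporphyrinogen decarboxylase, had 59.3, 86.7 and 77.3 CPM in PIF3 over-expression libraries, against 136, 141 and 124 CPM in Col-0 (log2 fold change -0.85 ± 0.14 SE, edgeR adjusted p = 0.00334). Both genes were lower in every over-expression library than in any Col-0 library. PORA and PORB, the protochlorophyllide reductases of greening seedlings, overlapped between groups and did not pass the test, at 0.41 and -0.20, while PORC was at -0.50 (edgeR adjusted p = 0.0658).

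Of 8 regulators of chloroplast genes, 5 were lower and none higher, against 7.32% and 6% of all genes tested. Leaving out PIF3 over-expression replicates 1, 2 and 3 gave 2, 5 and 4 lower members and leaving out Col-0 replicates 1, 2 and 3 gave 2, 3 and 4. SIG2, a sigma factor of the plastid RNA polymerase, had 53.6, 66.0 and 70.1 CPM in PIF3 over-expression libraries, against 113, 110 and 101 CPM in Col-0 (log2 fold change -0.77 ± 0.14 SE, edgeR adjusted p = 0.00523). GNC, a GATA factor that promotes greening and is known to be held back by PIFs, had 26.4, 35.2 and 36.5 CPM in PIF3 over-expression libraries, against 58.0, 54.8 and 47.4 CPM in Col-0 (log2 fold change -0.71 ± 0.13 SE, edgeR adjusted p = 0.00628). Neither gene's groups overlapped, and both held in all 6 fits. GLK1, a main activator of photosynthesis genes, had 52.0, 68.3 and 64.2 CPM in PIF3 over-expression libraries, against 86.5, 82.6 and 93.5 CPM in Col-0 (log2 fold change -0.51 ± 0.14 SE, edgeR adjusted p = 0.026). That call was kept only without PIF3 over-expression replicate 2, at adjusted p of 0.119 and 0.0557 without PIF3 over-expression replicates 1 and 3 and 0.0838, 0.06 and 0.0806 without Col-0 replicates 1, 2 and 3. GLK2 did not pass the test (-0.17). Of 9 chlorophyll breakdown genes 2 were lower and 1 was higher, against the same 7.32% and 6% of all genes. The higher gene, NYE2, kept its call only without PIF3 over-expression replicate 2, with adjusted p by edgeR of 0.169 and 0.0633 without PIF3 over-expression replicates 1 and 3 and 0.132, 0.0789 and 0.0715 without Col-0 replicates 1, 2 and 3. NYC1, a chlorophyll b reductase, and SGRL, a relative of the stay-green Mg-dechelatases, were the lower members and held in all 6 fits. NYC1 had 25.9, 37.9 and 25.4 CPM in PIF3 over-expression libraries, against 73.8, 57.9 and 68.7 CPM in Col-0 (log2 fold change -1.17 ± 0.16 SE, edgeR adjusted p = 0.00156). Of 13 carotenoid and isoprenoid genes 5 were lower, against 7.32% of all genes. There were 2, 5 and 3 lower members without PIF3 over-expression replicates 1, 2 and 3. Leaving out Col-0 replicates 1, 2 and 3 gave 1, 3 and 3. VDE, which forms zeaxanthin in high light, held in all 6 fits at log2 fold change -0.67 ± 0.13 SE (edgeR adjusted p = 0.0059).

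In the other lines the same lists stood elsewhere. Set against the cfh1 mutant, PIF3 over-expression was lower in 12 light harvesting, 19 photosystem and 18 chlorophyll synthesis genes, against 7.18% of all genes. Set against the CFH1 decoy line it was lower in 25, 22 and 25 of them, against 20.5% of all genes. These comparisons use the same over-expression libraries as the one against Col-0 and are not independent of it. The decoy line itself was above Col-0 in 17, 20 and 17 members, against 19.6% of all genes, so its 3 medians were positive (0.72, 0.62 and 0.54) where those of PIF3 over-expression were negative.

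**Figure D2:**
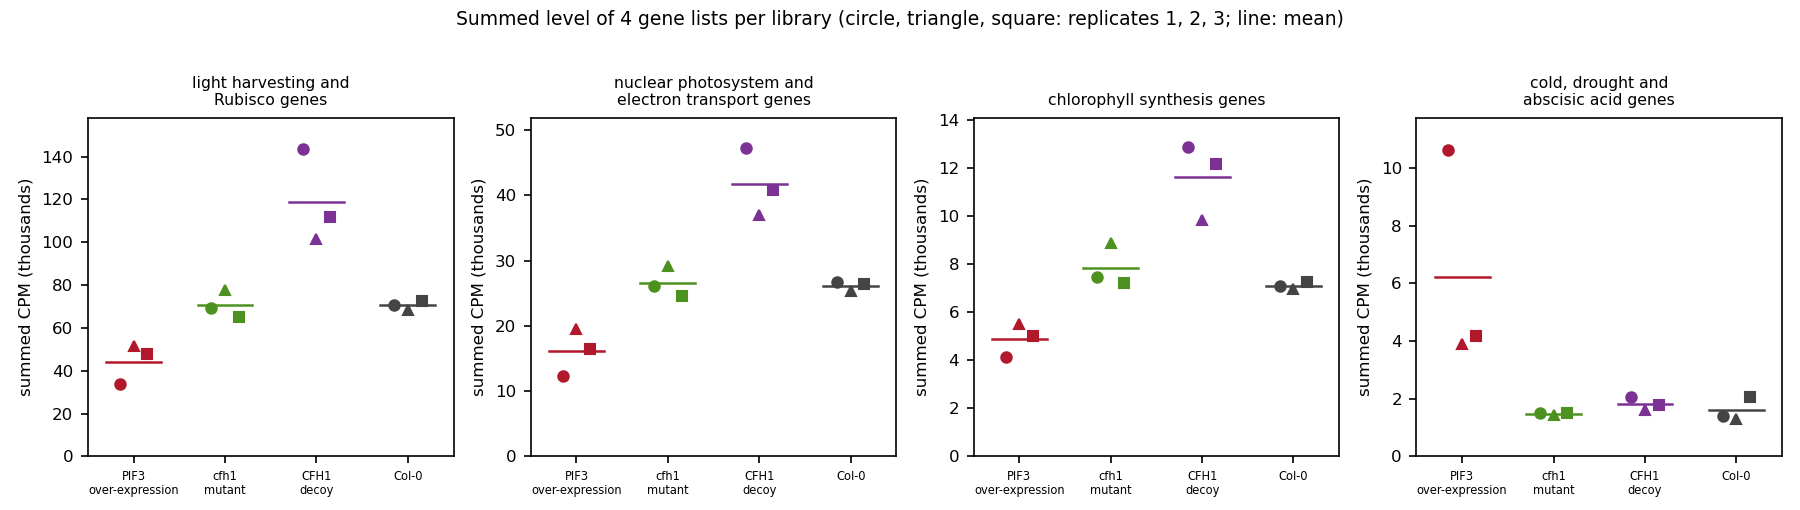
Summed level (vertical axis, CPM divided by 1000, from 0) of 4 gene lists in the 12 libraries, by genotype, with a line at each group's mean. For the 3 photosynthesis lists the PIF3 over-expression libraries lie lowest of the 4 genotypes, and for the cold, drought and abscisic acid list they lie highest, with replicate 1 at 10607 CPM.

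Genes of cold, drought and abscisic acid, the hormone of water shortage, were higher with PIF3 over-expression. Of 26 tested members 21 were called higher and none lower, against 6% of all genes, and the median log2 fold change was 1.58. All 3 over-expression libraries were above all 3 Col-0 libraries for 24 of the 26, against 19.9% of all genes. The summed level was 10607, 3904 and 4172 CPM in PIF3 over-expression libraries, against 1413, 1307 and 2073 CPM in Col-0. Replicate 1 of PIF3 over-expression thus held far more of these transcripts than replicates 2 and 3, and Col-0 replicate 3 more than Col-0 replicates 1 and 2. The part of seedling handling or water status in this result was not tested. With PIF3 over-expression replicates 1, 2 and 3 left out in turn, the fits gave 15, 21 and 21 higher members, leaving out Col-0 replicates 1, 2 and 3 gave 13, 14 and 20, and leaving out PIF3 over-expression replicate 1 together with Col-0 replicate 3 gave 15. The median was 1.17 without PIF3 over-expression replicate 1 and 1.3 without both. Against the cfh1 mutant and against the decoy line, PIF3 over-expression was higher in 20 members each and lower in none, against 5.7% and 22.7% of all genes.

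The members span synthesis, signalling and protective end products. NCED3, which makes the precursor of abscisic acid in drought, had 46.5, 20.9 and 22.2 CPM in PIF3 over-expression libraries, against 5.57, 5.69 and 7.62 CPM in Col-0 (log2 fold change 2.25 ± 0.29 SE, edgeR adjusted p = 0.00117). The groups were well separated and the call held in all 6 fits. ABI1, a phosphatase that holds the abscisic acid signal down and is itself induced by it, had 166, 133 and 133 CPM in PIF3 over-expression libraries, against 71.0, 66.4 and 75.4 CPM in Col-0 (log2 fold change 1.02 ± 0.13 SE, edgeR adjusted p = 0.000874). HAI2, a phosphatase of the same clade, was higher at 4.38 ± 0.71 SE (edgeR adjusted p = 0.00334), and ABI2, the close relative of ABI1, at 1.63 ± 0.22 SE (edgeR adjusted p = 0.00126). ABI1, ABI2 and HAI2 held in all 6 fits. For HAI2 the log2 fold change was 3.71 without PIF3 over-expression replicate 1 and 6.0 without Col-0 replicate 3. The transcription factor ABF3 had 109, 109 and 118 CPM in PIF3 over-expression libraries, against 69.6, 72.3 and 73.1 CPM in Col-0 (log2 fold change 0.65 ± 0.13 SE, edgeR adjusted p = 0.00792), with no overlap and little spread in either group.

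P5CS1, the rate-limiting enzyme of proline synthesis, had 1073, 520 and 619 CPM in PIF3 over-expression libraries, against 43.6, 56.7 and 127 CPM in Col-0 (log2 fold change 3.29 ± 0.40 SE, edgeR adjusted p = 0.000874), and 3.88 without Col-0 replicate 3. GOLS2, a galactinol synthase that feeds the protective raffinose sugars, had 94.9, 60.6 and 52.3 CPM in PIF3 over-expression libraries, against 1.58, 1.70 and 10.4 CPM in Col-0 (log2 fold change 3.95 ± 0.56 SE, edgeR adjusted p = 0.00175), and 5.40 without Col-0 replicate 3. In both genes Col-0 replicate 3 was the highest of its group but stayed below all over-expression libraries. RD29B, a classic desiccation marker, had 706, 144 and 188 CPM in PIF3 over-expression libraries, against 3.13, 4.87 and 36.4 CPM in Col-0 (log2 fold change 4.56 ± 0.89 SE, edgeR adjusted p = 0.00725). Without PIF3 over-expression replicate 1 its log2 fold change was 3.5 and without Col-0 replicate 3 it was 6.43, both still called. RAB18, a dehydrin, had 3295, 515 and 577 CPM in PIF3 over-expression libraries, against 8.78, 12.1 and 191 CPM in Col-0 (log2 fold change 4.37 ± 1.1 SE, edgeR adjusted p = 0.0209). Its call was lost without PIF3 over-expression replicate 1 (2.95, edgeR adjusted p = 0.103), without Col-0 replicate 1 (3.85, edgeR adjusted p = 0.0714) and without Col-0 replicate 2 (3.87, edgeR adjusted p = 0.0746), and was kept at 7.13 without Col-0 replicate 3. The cold regulators CBF2 and CBF3 did not pass the test (1.04 and 0.72, edgeR adjusted p = 0.065 and 0.312), CBF1 was too low to be tested, and COR47, GOLS3 and COR15B did not pass it either.

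**Figure D3:**
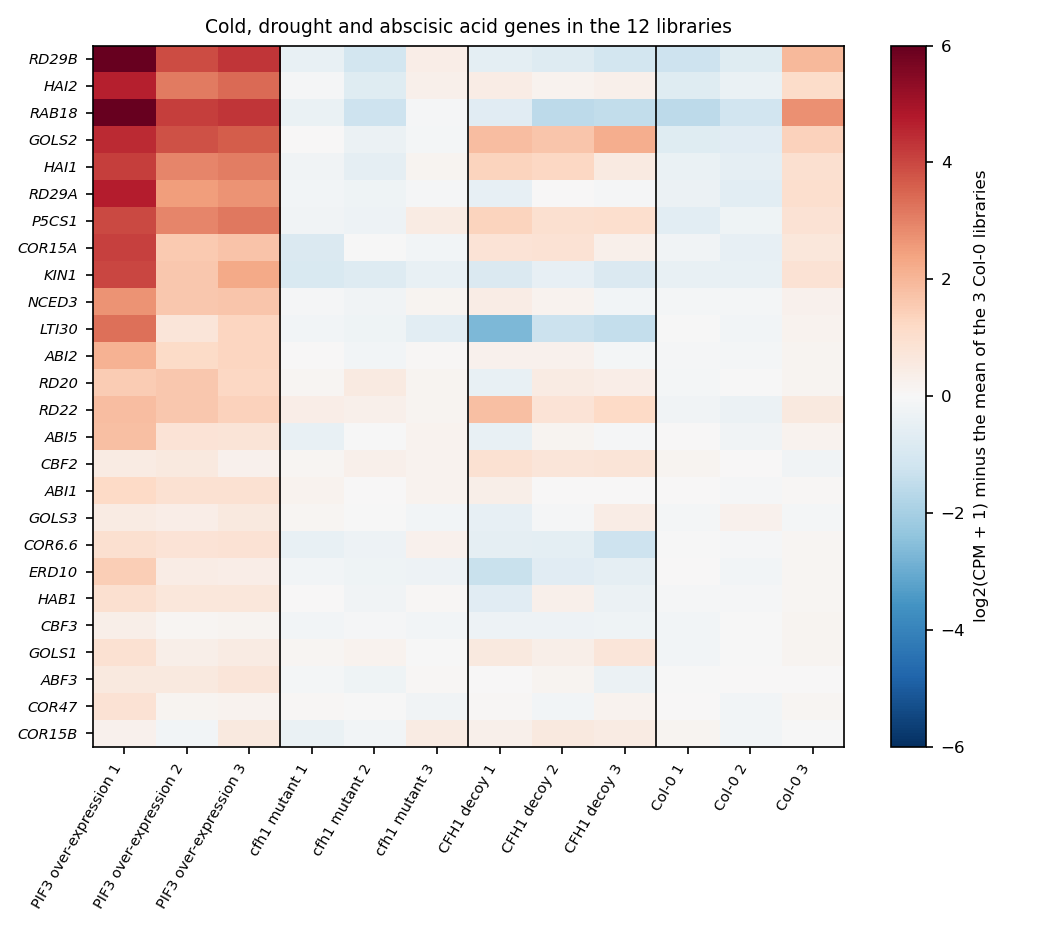
Heat map of 26 cold, drought and abscisic acid genes (rows) in the 12 libraries (columns), coloured by log2(CPM + 1) minus the mean of the 3 Col-0 libraries. The PIF3 over-expression columns are red for nearly all genes, most strongly in replicate 1, and Col-0 replicate 3 is redder than the other Col-0 libraries for RAB18 and RD29B. GOLS2 is also red in the decoy columns, where it averaged 15.2 CPM.

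Anthocyanins are red pigments made in strong light and stress. Of 26 flavonoid and anthocyanin genes 9 were called higher and none lower, against 6% and 7.32% of all genes tested. Their median log2 fold change was 0.33, and it was 0.03 without PIF3 over-expression replicate 1. With PIF3 over-expression replicates 1, 2 and 3 left out in turn, the fits gave 4, 9 and 11 higher members and leaving out Col-0 replicates 1, 2 and 3 gave 2, 4 and 7. PAP1, a MYB activator of the pathway, had 33.5, 18.16 and 11.8 CPM in PIF3 over-expression libraries, against 1.23, 2.87 and 6.97 CPM in Col-0 (log2 fold change 2.53 ± 0.50 SE, edgeR adjusted p = 0.00778), and 3.36 without Col-0 replicate 3. TT19, a glutathione transferase needed to move anthocyanin into the vacuole, had 92.5, 39.1 and 23.4 CPM in PIF3 over-expression libraries, against 6.49, 9.50 and 13.2 CPM in Col-0 (log2 fold change 2.42 ± 0.41 SE, edgeR adjusted p = 0.00415), and 1.69 without PIF3 over-expression replicate 1. Both genes held in all 6 fits, with replicate 1 highest. UGT75C1, an anthocyanin glucosyltransferase, had 102, 34.5 and 19.0 CPM in PIF3 over-expression libraries, against 6.0, 9.06 and 13.9 CPM in Col-0 (log2 fold change 2.43 ± 0.51 SE, edgeR adjusted p = 0.00931). Its log2 fold change was 1.47 without PIF3 over-expression replicate 1, and its call was lost without Col-0 replicate 1 (2.18, edgeR adjusted p = 0.0556). Chalcone synthase CHS, at the entry of the pathway, overlapped between groups at 526, 161 and 111 CPM in PIF3 over-expression libraries, against 114, 114 and 128 CPM in Col-0, and did not pass the test (edgeR adjusted p = 0.164).

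Of 13 tested heat shock genes 4 were higher and 1 lower, against 6% and 7.32% of all genes tested. With PIF3 over-expression replicates 1, 2 and 3 left out in turn, the fits gave 3, 6 and 4 higher members and leaving out Col-0 replicates 1, 2 and 3 gave 3, 3 and 4. The lower call was kept only without PIF3 over-expression replicate 3 and was lost under scaling by library totals. The chaperone gene HSP70 had 254, 90.5 and 87.9 CPM in PIF3 over-expression libraries, against 25.2, 23.0 and 43.2 CPM in Col-0 (log2 fold change 2.24 ± 0.38 SE, edgeR adjusted p = 0.00408), and 1.55 without PIF3 over-expression replicate 1. HSP22, a small heat shock protein, had 12.1, 1.88 and 1.77 CPM in PIF3 over-expression libraries, against 0, 0.0587 and 0.343 CPM in Col-0 (log2 fold change 5.34 ± 0.95 SE, edgeR adjusted p = 0.00491). The groups of both genes were apart, and the log2 fold change of HSP22 was 3.81 without PIF3 over-expression replicate 1, 4.73 without Col-0 replicate 1 and 7.31 without Col-0 replicate 3. The general heat markers HSP101, HSP18.2 and HSFA2 did not pass the test, at log2 fold changes of -0.14, -0.02 and 0.01.

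Lists of growth hormone genes differed in their share of calls. Of 34 tested genes of auxin response, synthesis and transport 9 were higher and none lower, against 6% and 7.32% of all genes tested. Their median log2 fold change was 0.22. With PIF3 over-expression replicates 1, 2 and 3 left out in turn, the fits gave 9, 4 and 5 higher members and leaving out Col-0 replicates 1, 2 and 3 gave 2, 3 and 4. IAA29, described above, and GH3.5 held in all 6 fits. GH3.5, which joins auxin to amino acids, had 44.1, 44.1 and 50.9 CPM in PIF3 over-expression libraries, against 20.5, 24.6 and 26.5 CPM in Col-0 (log2 fold change 0.96 ± 0.19 SE, edgeR adjusted p = 0.00783). YUC8, an auxin synthesis enzyme that PIF4 is known to induce, was called at log2 fold change 0.59 ± 0.18 SE (edgeR adjusted p = 0.0433) but in none of the 6 fits, where the adjusted p lay between 0.073 without PIF3 over-expression replicate 1 and 0.135 without Col-0 replicate 1. The auxin transporter genes PIN3, PIN4 and PIN7 overlapped between groups and did not pass the test, at log2 fold changes of -0.09, 0.02 and 0.01. The decoy line was above Col-0 in 21 of the 34 auxin genes and below it in 3, with a median of 0.76. PIF3 over-expression was above the decoy line in 5 of them and below it in 16, against 22.7% and 20.5% of all genes.

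Of 26 cell wall loosening genes 4 were higher and 2 lower, against 6% and 7.32% of all genes tested, so the lower share was near that of all genes. Without PIF3 over-expression replicates 1, 2 and 3 there were 3, 4 and 4 higher members, and without Col-0 replicates 1, 2 and 3 there were 2, 2 and 3. The lower members numbered 0, 2 and 0 and then 0, 0 and 2 in the same fits, and 0 under scaling by library totals. EXPA11, an expansin, had 86.1, 109 and 111 CPM in PIF3 over-expression libraries, against 41.4, 42.9 and 48.1 CPM in Col-0 (log2 fold change 1.21 ± 0.18 SE, edgeR adjusted p = 0.00195). XTH19, a xyloglucan-remodelling enzyme, had 83.1, 63.2 and 55.3 CPM in PIF3 over-expression libraries, against 29.4, 30.2 and 37.2 CPM in Col-0 (log2 fold change 1.06 ± 0.18 SE, edgeR adjusted p = 0.00364). Both were apart in every library and held in all 6 fits. EXPA11 did not differ detectably between PIF3 over-expression and the decoy line (log2 fold change -0.10, edgeR adjusted p = 0.666). The decoy line was above Col-0 in 13 of the 26 cell wall genes and below it in 5. PIF3 over-expression was above the decoy line in 4 of them and below it in 10, against 22.7% and 20.5% of all genes. Of 20 gibberellin genes 5 were higher and 1 lower, against the same 6% and 7.32% of all genes. Without PIF3 over-expression replicates 1, 2 and 3 there were 2, 3 and 3 higher members, and without Col-0 replicates 1, 2 and 3 there were 2, 3 and 5. GASA4 had 272, 286 and 359 CPM in PIF3 over-expression libraries, against 134, 154 and 129 CPM in Col-0 (log2 fold change 1.14 ± 0.19 SE, edgeR adjusted p = 0.00364). Its relative GASA1, also a gibberellin-regulated peptide, went the other way, with 50.7, 97.9 and 89.0 CPM in PIF3 over-expression libraries, against 204, 171 and 206 CPM in Col-0 (log2 fold change -1.29 ± 0.22 SE, edgeR adjusted p = 0.00439). The gibberellin receptor gene GID1A had 35.0, 33.5 and 34.5 CPM in PIF3 over-expression libraries, against 22.9, 22.9 and 25.0 CPM in Col-0 (log2 fold change 0.54 ± 0.10 SE, edgeR adjusted p = 0.00659). GASA4, GASA1 and GID1A held in all 6 fits. The decoy line was above Col-0 in 9 of the 20 gibberellin genes and below it in 1. PIF3 over-expression was above the decoy line in 4 of them and below it in 9, against the same 22.7% and 20.5% of all genes. Of 12 brassinosteroid genes none was called higher or lower by edgeR's fit of all 12 libraries. DESeq2 called 1 higher, and edgeR called 1 higher under scaling by library totals, 2 in the fit of PIF3 over-expression and Col-0 alone and 1 in the fit without the decoy libraries. Of 21 ethylene genes 1 was called, as higher, a share near the 6% of all genes tested. It was the receptor gene ERS2, at log2 fold change 0.61 (edgeR adjusted p = 0.0328). ERS2, named here after its values were seen, kept its call only without PIF3 over-expression replicate 2, with adjusted p of 0.121 and 0.083 without PIF3 over-expression replicates 1 and 3 and 0.132, 0.0896 and 0.0702 without Col-0 replicates 1, 2 and 3.

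**Figure D4:**
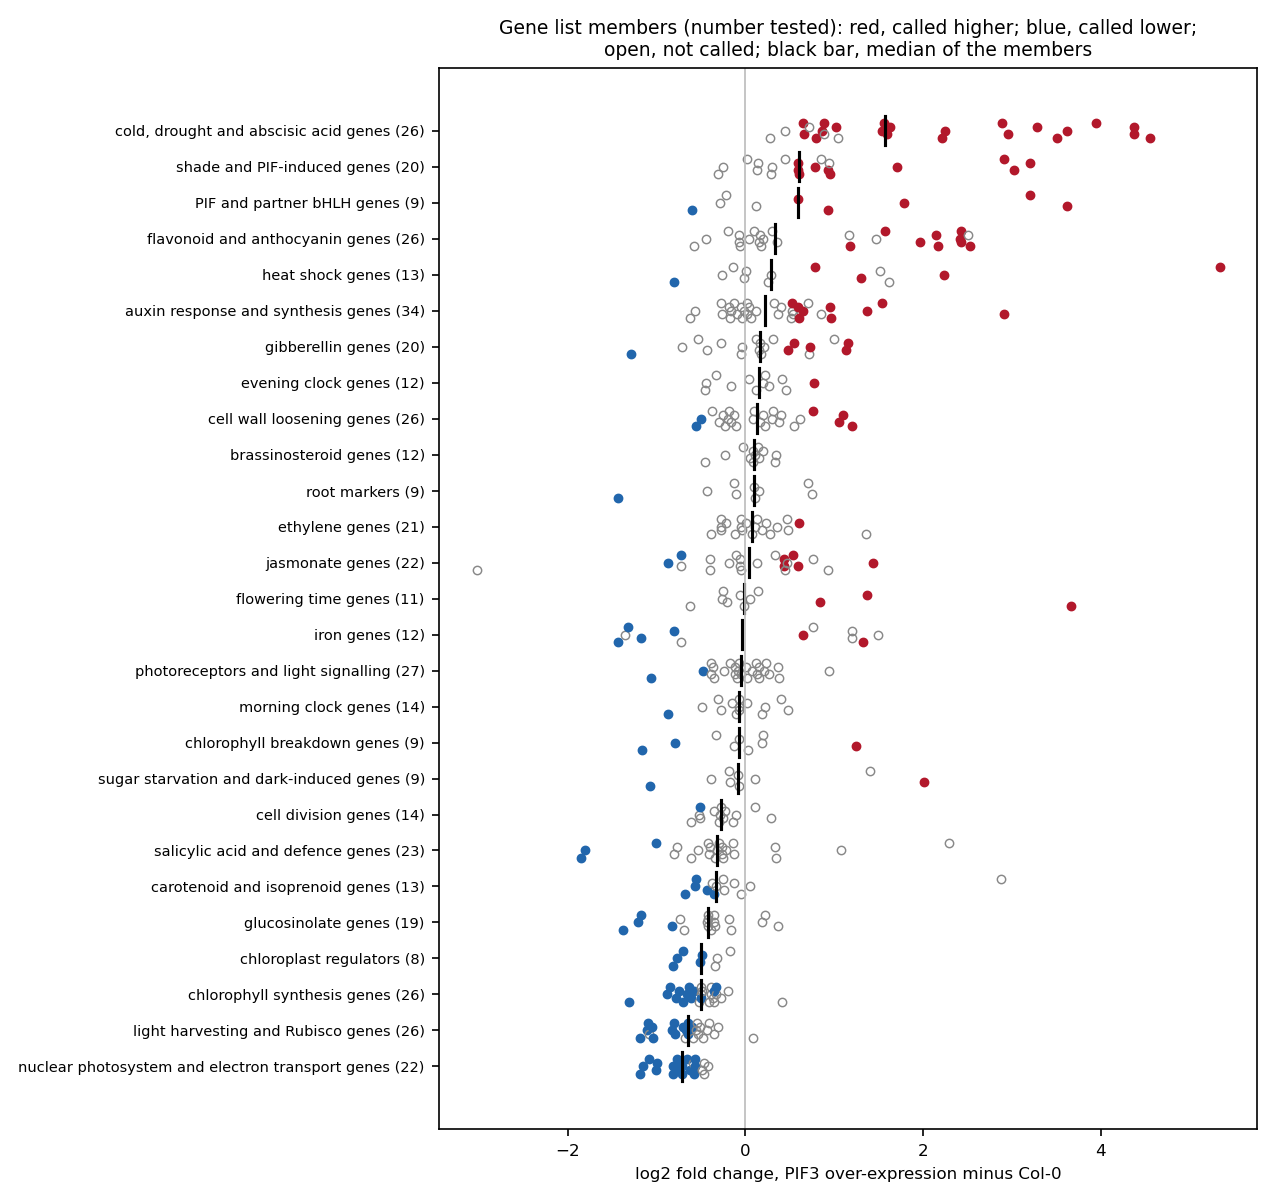
Log2 fold change of PIF3 over-expression over Col-0 (horizontal axis) for the tested members of 27 gene lists (rows, number tested in brackets), ordered by median. Red and blue points passed edgeR's test as higher and lower, open points did not, and the black bar is the list's median. The cold, drought and abscisic acid list has the highest median, 1.58, and the nuclear photosystem list the lowest, -0.71.

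The photoreceptors and most light signalling genes did not pass the test. Phytochrome B, the main red light receptor, had 86.3, 81.3 and 77.9 CPM of PHYB in PIF3 over-expression libraries, against 73.2, 73.1 and 78.2 CPM in Col-0 (log2 fold change 0.13 ± 0.11 SE, edgeR adjusted p = 0.479). Of 27 tested genes for receptors and light signalling, HYH and HY5 were called lower and none higher by edgeR's fit of all 12 libraries. That put 7.41% lower, near the 7.32% of all genes tested. In edgeR's fit of PIF3 over-expression and Col-0 alone 4 members were lower, and under scaling by library totals 1. DESeq2 called 1 member higher, and 3 were called higher by edgeR under scaling by library totals, in the fit of PIF3 over-expression and Col-0 alone and in the fit without the decoy libraries. HYH, a leucine zipper factor that acts beside HY5, had 14.5, 21.4 and 21.4 CPM in PIF3 over-expression libraries, against 39.9, 43.1 and 36.8 CPM in Col-0 (log2 fold change -1.06 ± 0.18 SE, edgeR adjusted p = 0.00388), and held in all 6 fits. HY5, the central promoter of light development, had 15.9, 17.9 and 15.7 CPM in PIF3 over-expression libraries, against 23.6, 25.5 and 20.0 CPM in Col-0 (log2 fold change -0.48 ± 0.12 SE, edgeR adjusted p = 0.0215). The HY5 groups did not overlap, but its call was lost without PIF3 over-expression replicates 1 and 3 (edgeR adjusted p = 0.0877 and 0.0749), without Col-0 replicates 1 and 2 (0.0873 and 0.101) and under scaling by library totals (0.087).

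For genes of the circadian clock, level and timing cannot be told apart, because seedlings were collected at 1 time only. Of 14 morning genes 1 was lower and of 12 evening genes 1 was higher. These shares were near those of all genes tested, 7.32% lower and 6% higher. CCA1, a morning clock repressor, had 109, 137 and 129 CPM in PIF3 over-expression libraries, against 148, 168 and 147 CPM in Col-0 (log2 fold change -0.31 ± 0.21 SE, edgeR adjusted p = 0.371). LHY, its partner, had 162, 232 and 201 CPM in PIF3 over-expression libraries, against 272, 293 and 266 CPM in Col-0 (log2 fold change -0.48 ± 0.18 SE, edgeR adjusted p = 0.0959). Both genes were below all Col-0 libraries without passing the test. LHY was called lower by DESeq2 (adjusted p = 0.0459), by edgeR on PIF3 over-expression and Col-0 alone (adjusted p = 0.0387) and by edgeR without the decoy libraries (adjusted p = 0.0483). TOC1, their evening counterpart, overlapped between groups at 71.4, 64.5 and 78.1 CPM in PIF3 over-expression libraries, against 68.9, 62.8 and 65.9 CPM in Col-0 (log2 fold change 0.12 ± 0.15 SE, edgeR adjusted p = 0.675). LNK2, a transcriptional coactivator of evening genes, had 94.9, 150 and 122 CPM in PIF3 over-expression libraries, against 211, 247 and 212 CPM in Col-0 (log2 fold change -0.87 ± 0.19 SE, edgeR adjusted p = 0.0118), and its adjusted p was 0.055 without PIF3 over-expression replicate 1 and 0.054 without Col-0 replicate 2. FKF1, a blue light receptor with an F-box, was higher at log2 fold change 0.78 ± 0.21 SE (edgeR adjusted p = 0.0287), with adjusted p of 0.142 and 0.0607 without PIF3 over-expression replicates 1 and 3 and 0.106 and 0.123 without Col-0 replicates 1 and 2. LNK2 and FKF1 are named after their values were seen.

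Among flowering time genes 3 of 11 were higher and none lower, against 6% and 7.32% of all genes tested. FLC, a repressor of flowering, had 16.1, 12.0 and 14.6 CPM in PIF3 over-expression libraries, against 4.94, 5.69 and 5.84 CPM in Col-0 (log2 fold change 1.37 ± 0.24 SE, edgeR adjusted p = 0.00491). SOC1, a promoter of flowering, had 19.3, 18.22 and 21.0 CPM in PIF3 over-expression libraries, against 10.7, 10.7 and 11.2 CPM in Col-0 (log2 fold change 0.84 ± 0.17 SE, edgeR adjusted p = 0.00818). Both were apart in every library and held in all 6 fits, so a repressor and a promoter of flowering were higher together. FT, the mobile flowering signal, was barely detected, at 0.987, 0.358 and 0.759 CPM in PIF3 over-expression libraries, against 0.0287, 0.0293 and 0.103 CPM in Col-0 (log2 fold change 3.67 ± 0.84 SE, edgeR adjusted p = 0.0139). Its call was lost without PIF3 over-expression replicate 1 (edgeR adjusted p = 0.0621) and without Col-0 replicates 1 and 2 (0.0797 and 0.072), and its log2 fold change was 4.42 without Col-0 replicate 3.

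Defence and nutrient lists differed in their share of calls, against 6% higher and 7.32% lower among all genes tested. Of 23 salicylic acid and defence genes 3 were lower and none higher, with 1, 3 and 1 lower without PIF3 over-expression replicates 1, 2 and 3 and 1, 2 and 2 without Col-0 replicates 1, 2 and 3. ACD6, a membrane regulator of defence, held in all 6 fits with 33.8, 37.9 and 30.6 CPM in PIF3 over-expression libraries, against 123, 106 and 129 CPM in Col-0 (log2 fold change -1.81 ± 0.32 SE, edgeR adjusted p = 0.00469). Of 22 jasmonate genes 5 were higher and 2 lower, with 2, 5 and 5 higher without PIF3 over-expression replicates 1, 2 and 3 and 3, 3 and 5 without Col-0 replicates 1, 2 and 3. The lower members numbered 1, 2 and 2 and then 0, 1 and 2 in the same fits. VSP2, a storage protein gene induced by jasmonate, had 56.6, 54.0 and 30.8 CPM in PIF3 over-expression libraries, against 20.2, 18.0 and 14.1 CPM in Col-0 (log2 fold change 1.43 ± 0.30 SE, edgeR adjusted p = 0.0101). MYC2, the main factor of jasmonate response, was higher at 0.53 ± 0.11 SE (edgeR adjusted p = 0.00857), but it lies over 98.5% of its length opposite another gene, and without strand information their reads cannot be told apart. Of 19 glucosinolate genes 4 were lower, none of them in all 6 fits, since none was called without PIF3 over-expression replicate 1 or without Col-0 replicates 1 or 2. Of 12 iron genes 4 were lower and 2 higher, with 2, 3 and 2 lower without PIF3 over-expression replicates 1, 2 and 3 and 2, 2 and 3 without Col-0 replicates 1, 2 and 3. The higher members numbered 2, 1 and 0 and then 0, 0 and 1 in the same fits. FIT, the factor that turns on iron uptake in roots, had 6.23, 8.47 and 5.79 CPM in PIF3 over-expression libraries, against 20.4, 16.5 and 14.3 CPM in Col-0 (log2 fold change -1.32 ± 0.27 SE, edgeR adjusted p = 0.00853). FER3, an iron storage ferritin, had 24.9, 23.8 and 24.0 CPM in PIF3 over-expression libraries, against 44.9, 45.2 and 36.5 CPM in Col-0 (log2 fold change -0.80 ± 0.16 SE, edgeR adjusted p = 0.00725). FIT and FER3 were apart in every library and held in all 6 fits. Of 9 sugar starvation and dark-induced genes 1 was higher and 1 lower. The lower gene, DIN10, was called in none of the 6 fits, and the higher gene, BCAT2, was not called without Col-0 replicates 1 and 2. Of 14 cell division genes 1 was lower, MCM5, named after its values were seen, which was not called without PIF3 over-expression replicate 1 (edgeR adjusted p = 0.0737) or without Col-0 replicates 1 and 2 (0.0738 and 0.0836). Of 9 root marker genes only the iron transporter IRT1, which is also on the iron list, was called by edgeR's fit of all 12 libraries, at log2 fold change -1.44 (edgeR adjusted p = 0.0377), a call lost in all 6 fits at adjusted p from 0.0594 without Col-0 replicate 3 to 0.136 without PIF3 over-expression replicate 1. The root-abundant PYK10 had 3581, 4363 and 3389 CPM in PIF3 over-expression libraries, against 3139, 2958 and 4067 CPM in Col-0, an overlap of the groups. Of the 4 leaf markers, LHCB1.3, LHCB2.1 and RCA did not pass the test and RBCS1A was called lower, a call kept only without PIF3 over-expression replicate 2, with adjusted p by edgeR of 0.113 and 0.078 without PIF3 over-expression replicates 1 and 3 and 0.116, 0.11 and 0.0519 without Col-0 replicates 1, 2 and 3. The sum of the 4 was 16184, 24003 and 24095 CPM in PIF3 over-expression libraries, against 31686, 29871 and 32896 CPM in Col-0. All 4 are antenna or Rubisco genes, so this sum is not separate from the light harvesting and Rubisco list. The part of a changed share of leaf tissue in the lower photosynthesis genes was not tested.

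The largest rises included further genes known from water stress. Among nuclear genes with a symbol and a mean log2 CPM of at least 1, HSFA6A, a heat shock factor known from abscisic acid response, came first with 52.1, 26.7 and 31.2 CPM in PIF3 over-expression libraries, against 0.144, 0.205 and 3.92 CPM in Col-0 (log2 fold change 4.75 ± 0.81 SE, edgeR adjusted p = 0.00403), and 7.68 without Col-0 replicate 3. HAI3 (4.65), LEA4-5 (4.22) and SAG29 (4.01) also held in all 6 fits. SAG29, a sucrose transporter of the SWEET family, had 149, 54.0 and 46.4 CPM in PIF3 over-expression libraries, against 1.38, 2.08 and 12.3 CPM in Col-0. Without PIF3 over-expression replicate 1 the log2 fold changes of HAI3, LEA4-5 and SAG29 were 3.36, 3.09 and 3.28, and without Col-0 replicate 3 they were 5.74, 5.46 and 5.58. Of the others, TSPO (4.61) lost its call without PIF3 over-expression replicate 1 (3.05, edgeR adjusted p = 0.0537) and without Col-0 replicate 1 (edgeR adjusted p = 0.0537), and LEA7 (4.31) without Col-0 replicate 1 (3.85, edgeR adjusted p = 0.0508). LEA7 was at 2.88 without PIF3 over-expression replicate 1 and at 6.12 without Col-0 replicate 3, and TSPO at 6.83 without Col-0 replicate 3. LTP4, a lipid transfer protein (3.90), and CWINV5, a cell wall invertase (3.75), lost their calls without PIF3 over-expression replicate 1 (at 3.23 and 1.84, edgeR adjusted p = 0.154 and 0.24) and without Col-0 replicates 1 and 2 (0.111 and 0.127 for LTP4, 0.109 and 0.115 for CWINV5), and LTP4 also without PIF3 over-expression replicate 2 (0.0567). Without Col-0 replicate 3 they were at 7.69 and 5.60, and DESeq2 did not call LTP4 (adjusted p = 0.0653). Of the genes without a symbol, AT5G24240, annotated as a phosphatidylinositol 4-kinase gamma-like protein, had 38.5, 43.9 and 38.2 CPM in PIF3 over-expression libraries, against 1.41, 1.67 and 1.13 CPM in Col-0 (log2 fold change 4.83 ± 0.19 SE, edgeR adjusted p = 3.27e-08). Its 3 over-expression libraries were close to each other, and it held in all 6 fits. It averaged 1.28 CPM in the cfh1 mutant and 14.8 CPM in the decoy line, and PIF3 over-expression lay above the decoy line by 1.44 on the log2 scale (edgeR adjusted p = 2.05e-05).

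Among the largest falls, MRD1, named for its response in a methionine over-accumulating mutant, had 1.81, 1.52 and 2.31 CPM in PIF3 over-expression libraries, against 45.2, 45.3 and 40.0 CPM in Col-0 (log2 fold change -4.53 ± 0.18 SE, edgeR adjusted p = 3.27e-08). HEI10, a RING protein of meiotic crossover formation, had 1.86, 1.73 and 1.43 CPM in PIF3 over-expression libraries, against 8.52, 8.65 and 8.83 CPM in Col-0 (log2 fold change -2.37 ± 0.20 SE, edgeR adjusted p = 7.95e-05). The 2 genes overlap by 1446 bases on opposite strands (MRD1 at chr1:19963047-19964712, minus, and HEI10 at chr1:19963267-19966952, plus, TAIR10.1), so without strand information part of their reads cannot be told apart. Both were low in the cfh1 mutant too, at 0.217 and 1.1 CPM on average, while in the decoy line they averaged 102 and 3.81 CPM. MRD1 was above its cfh1 level in PIF3 over-expression (log2 fold change 3.11, edgeR adjusted p = 0.000147), and HEI10 did not differ detectably (0.61, edgeR adjusted p = 0.0841).

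CYP712A1, a cytochrome P450, had 0.226, 0.507 and 0.253 CPM in PIF3 over-expression libraries, against 6.69, 5.43 and 4.57 CPM in Col-0 (log2 fold change -4.08 ± 0.49 SE, edgeR adjusted p = 0.000844). AT1G52820, annotated as a 2-oxoglutarate and iron-dependent oxygenase, had 0.141, 0.447 and 0.253 CPM in PIF3 over-expression libraries, against 8.07, 7.54 and 7.83 CPM in Col-0 (log2 fold change -4.79 ± 0.58 SE, edgeR adjusted p = 0.000783). GASA5, of the gibberellin-regulated peptide family, had 0.254, 0.865 and 0.843 CPM in PIF3 over-expression libraries, against 5.48, 6.10 and 5.74 CPM in Col-0 (log2 fold change -3.14 ± 0.40 SE, edgeR adjusted p = 0.00112). In all of these the over-expression libraries were close to 0 and well below Col-0, and the calls held in all 6 fits. PYL6, an abscisic acid receptor, had 1.61, 3.85 and 2.19 CPM in PIF3 over-expression libraries, against 6.43, 11.6 and 12.8 CPM in Col-0 (log2 fold change -2.01 ± 0.34 SE, edgeR adjusted p = 0.00379). The receptor gene was thus lower while the response genes above were higher, and its groups did not overlap. NEET, an iron-sulfur protein, was lower at -3.15 ± 0.64 SE (edgeR adjusted p = 0.00836), and at -4.83 without PIF3 over-expression replicate 2, which with 7.19 CPM stood above 0.733 and 1.12 CPM in the other over-expression libraries. LURP1, a defence gene at -1.89 and the smallest of these 12 falls, lost its call without PIF3 over-expression replicates 2 and 3 (edgeR adjusted p = 0.0551 and 0.0677) and without Col-0 replicates 1 and 2 (0.0633 and 0.0618).

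**Figure D5:**
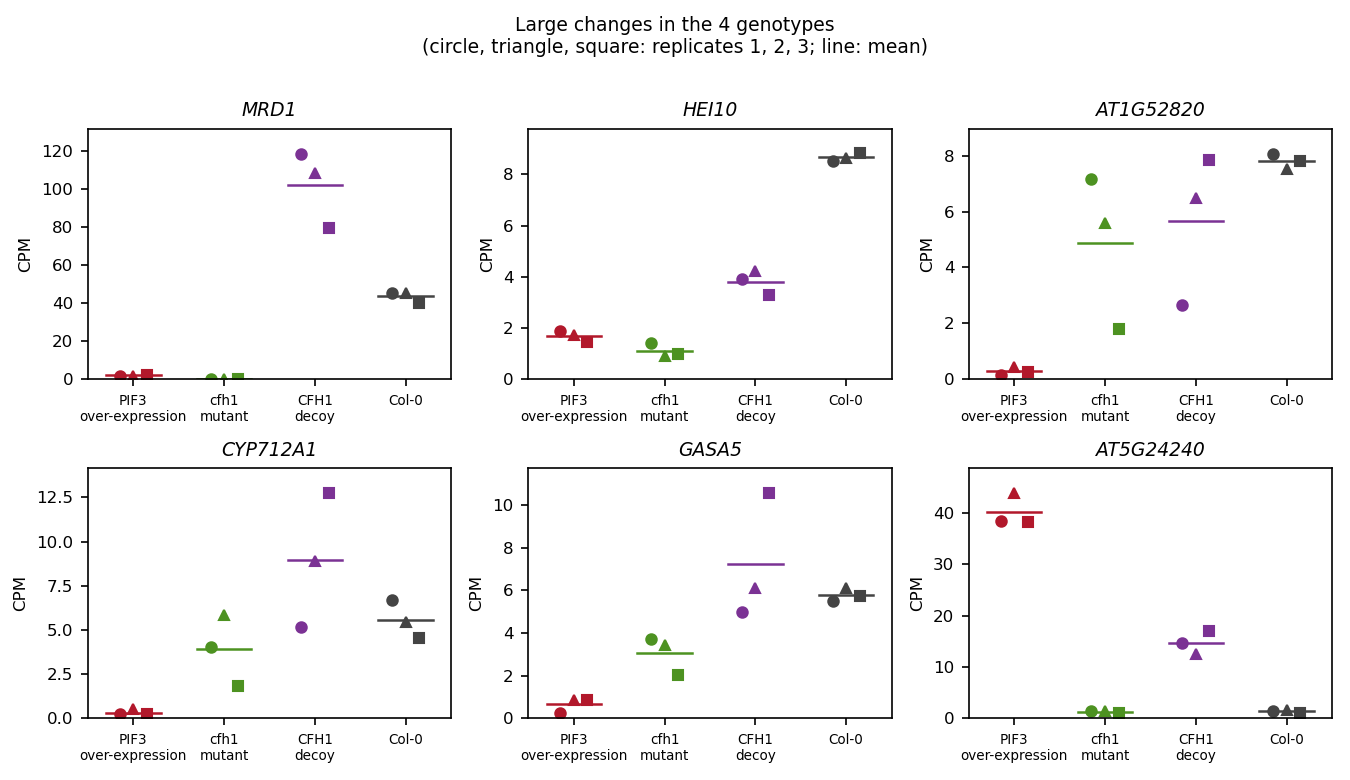
Levels in CPM (vertical axis, from 0) of 6 genes with large differences in the 3 libraries of each of the 4 genotypes, with a line at each group's mean. MRD1 and HEI10 are low in PIF3 over-expression and in the cfh1 mutant, while AT5G24240 is high in PIF3 over-expression and intermediate in the decoy line.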

How the data were processed

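RNA was sequenced from whole seedlings, and the authors deposited 1 table of estimated counts per gene for 12 libraries, in which 41.6% of values are not whole. Per the submitters' processing notes, Trimmomatic 0.39, HISAT2 2.1.0 and StringTie 2.1.2 were used with build TAIR10; what each did, how reads were counted and whether strand was used is not given in the sources used here. Such counts can be divided between near-identical genes such as the LHCB1, LHCB2 and RBCS families. The deposited estimated counts were rounded to whole numbers, filtered with filterByExpr (minimum count 10), TMM-scaled and fitted with edgeR 4.0.16 (R 4.3.3) over all 12 libraries, with 1 mean per genotype and 8 residual degrees of freedom. P-values were adjusted by Benjamini-Hochberg over 21235 genes, with a threshold of 0.05, and the SE is the log2 fold change divided by the root of F. Total counts per library limit the precision of low genes. On simulated data with 50 genes changed per size, edgeR recovered 18% at 1.5-fold, 62% at 2-fold, 96% at 4-fold and 100% at 8-fold. Names, products and the 300 upstream bases came from RefSeq TAIR10.1, which matched 27390 loci, and 21108 tested genes had an upstream window. Alternatives were RLE and library-total scaling, DESeq2 1.42.0, other filters, PIF3 over-expression and Col-0 alone, no decoy libraries, a replicate block and each library left out.

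The members and gene lists were chosen with earlier results of these data known. Genes were named by rule: PIF3, PHYB, CCA1, LHY, TOC1 and PIL1, the 12 largest rises and 12 largest falls among called nuclear genes (groups apart, named in the reference or lists, mean log2 CPM 1 or more), up to 4 called members per list by smallest p, and the largest changes without a symbol. Outside that rule, PIF4, ATHB2, IAA19, RBCS3B, RBCS1A, GLK1, ABF3, YUC8, ERS2, LNK2, FKF1, IRT1, PSBQ1, PSAN, CHS, MCM5 and the members named as not passing the test were chosen after their values were seen. Of 122 genes named by the rule, 33 overlap another tested gene, 14 of them over more than 10% of their length.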

Additional observations from a re-analysis of the deposited data

How the results depend on the processing

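No gene called both as reported and under an alternative changed direction. Under scaling by library totals no PIF gene was lower. DESeq2 called 20 chlorophyll synthesis genes lower, and 1588 genes higher and 2065 lower in all. A fit of PIF3 over-expression and Col-0 alone called 1930 genes higher, 2349 lower, 22 chlorophyll synthesis genes lower and 1 auxin gene lower. The same fit called 8 glucosinolate, 5 salicylic acid and defence, 4 jasmonate and 4 cell division genes lower. It called 6 iron genes, 2 root markers and 1 salicylic acid and defence gene higher, and 0 sugar starvation genes lower. A fit without the decoy libraries called 2020 genes higher and 1 auxin gene lower. There 6 iron genes were higher, and 5 salicylic acid and defence and 2 cell division genes were lower. With the replicate block 8 light harvesting genes were lower and 4 flavonoid genes higher, and 1046 genes were higher and 1326 lower in all. Same-numbered libraries correlated at -0.157, -0.065 and -0.092 in their deviations from the mean of their group. With 3 libraries per group, these values cannot decide whether the numbers paired the samples. Leaving out 1 library gave 413 to 1090 genes higher and 461 to 1429 lower, of which 275 to 545 and 189 to 517 differed by 1 or more on the log2 scale. Over the lists it gave 3 to 5 PIF genes higher and 0 to 1 lower, 3 to 7 shade genes higher, 3 to 17 light harvesting, 6 to 18 photosystem and 3 to 11 chlorophyll synthesis genes lower, and 2 to 11 flavonoid, 2 to 9 auxin and 13 to 21 abscisic acid genes higher. Leaving out PIF3 over-expression replicate 1 and Col-0 replicate 3 together, an alternative chosen after seeing the data, gave 516 genes higher and 451 lower, 307 and 175 of them by 1 or more on the log2 scale. It gave no PIF gene lower, 4 shade genes higher, 2 light harvesting and 4 photosystem genes lower, 1 chlorophyll synthesis gene higher and 3 lower, 3 flavonoid genes higher and 5 auxin genes higher. The cause of these moves was not tested. Counting error limits the genes with the fewest counts, and p-values measure the spread between 3 libraries per group.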

Other observations

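By product name, 79 tested genes are for a late embryogenesis abundant protein or a dehydrin, proteins that guard cells as they dry. Members of the abscisic acid list were not taken out, and the dehydrin RAB18 is counted in both, so the calls below are not separate from those of that list. This group was chosen after values were seen. Of the 79, 23 (29.1%) were called higher and 4 (5.06%) lower in PIF3 over-expression relative to Col-0, against 6% and 7.32% of all genes tested, with a median log2 fold change of 0.37. Relative to the CFH1 decoy line, 42 were higher and 7 lower, against 22.7% and 20.5% of all genes tested. The decoy line itself was above Col-0 in 3 of the 79 and below it in 30, with a median of -0.61. Over all 21235 genes tested it was above Col-0 in 4163 and below it in 4504.

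Of 76 tested plastid-encoded genes, also chosen after values were seen, 4 (5.26%) were called higher and 11 (14.5%) lower, against 6% and 7.32% of all genes tested, with a median log2 fold change of -0.01. Plastid-encoded genes held 0.737%, 0.984% and 1.17% of counts in the PIF3 over-expression libraries, against 1.54%, 1.62% and 1.09% in Col-0, so the ranges overlapped.

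Several called genes were nearly silent in 1 group, and their rounded counts are summed here over 3 libraries. The uncharacterized AT5G40790 had 175 counts in PIF3 over-expression and 1 count in Col-0. MYB79 had 58 counts in PIF3 over-expression and 3 counts in Col-0, and CYP96A15, a P450 of the family that makes wax alkanes into alcohols, had 29 counts in PIF3 over-expression and 2 counts in Col-0. In the other direction, the MADS-box gene AT1G59920 had 3 counts in PIF3 over-expression and 40 counts in Col-0, and CYP712A2, a relative of CYP712A1, had 2 counts in PIF3 over-expression and 32 counts in Col-0.

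Around MRD1 and HEI10, 6 further tested genes were looked up. Of these 6, 1 was called higher and none lower, against 6% and 7.32% of all genes tested. The called neighbour was MSL4, a mechanosensitive channel gene, at log2 fold change 1.28 (edgeR adjusted p = 0.0163).

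Seed markers were mostly too low to be tested, with 1 of 5 tested. None of the 5 was called by edgeR's fit of all 12 libraries, but 1 each was called higher by DESeq2, by edgeR on PIF3 over-expression and Col-0 alone and by edgeR without a filter on low counts. The 5 seed markers summed to 2.85, 0.686 and 0.731 CPM in PIF3 over-expression libraries, against 0.144, 0.264 and 0.24 CPM in Col-0, and their groups did not overlap. Flower markers, with 2 of 6 tested, gave no call by edgeR, and among 3 tested senescence markers only SAG29 was called.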
